A study of Mus musculus with 5 samples.

Results

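Interneurons of CGE type were examined in the hippocampus of newborn mice with and without a working Trem2 gene. CGE stands for caudal ganglionic eminence, a transient germinal zone of the embryonic brain. The cells were chosen by their own UMI counts (unique molecular identifiers, 1 per captured mRNA molecule), cell by cell. A member carried at least 2 UMIs of Gad1 plus Gad2, at least 1 UMI of Adarb2, Nr2f2 or Sp8 together, at most 1 UMI of Meis2, and 0 UMIs of Lhx6, Foxp2, Neurod6, Mki67 and Top2a. This gave 504 members among 30699 kept cells and among 2247 kept cells with at least 2 Gad1 plus Gad2 UMIs, called Gad-positive cells here. The 11 genes of this rule are described below, and no test result is given for any of them. Those that passed the filter on low counts stayed in the fits and in the adjustment of p-values. They are among the genes counted as tested by genotype and are left out of the counts for the splits by Sp8.

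The series holds 5 single-cell RNA libraries from hippocampi of postnatal day 1 mice, each pooled from 2 pups. Trem2 +/+ animals (wild type) gave WT1, WT2 and WT3, and Trem2 -/- animals, which lack a working copy of this receptor gene, gave KO2 and KO3. Replicates 1 and 3 pooled 1 female and 1 male, replicates 2 pooled 2 males, and no other treatment or allele is named. The labels do not say whether libraries came from separate litters, so p-values measure the spread between these pools only. With 3 libraries against 2, an exact permutation test of a single value cannot give a p below 0.1.

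Interneurons that leave the caudal eminence are the later-born of the main cortical and hippocampal interneuron streams and settle preferentially in superficial layers. They give rise to cells that contain vasoactive intestinal peptide, to basket cells that contain cholecystokinin, and to part of the neurogliaform cells, and many carry the ionotropic serotonin receptor Htr3a. The other main stream comes from the medial eminence, requires the transcription factor Lhx6, and yields somatostatin and parvalbumin cells. TREM2 itself is a lipid-sensing receptor of microglia, the macrophages of the brain, and is not a neuronal gene.

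Levels are given as CPM, the UMIs of a gene summed over the members of a library and scaled to a common library total. The members totalled 4445065 UMIs, between 279764 in WT2 and 1546765 in KO3. WT2 rested on 33 members and stood apart by radial glia markers. The summed level of Slc1a3, Fabp7, Hopx, Aldoc, Aqp4 and Sox9 was 5780 CPM there and 179 to 1247 CPM in the other 4 libraries, and 1 of its members held 686 Fabp7 UMIs. Across the 5 libraries 120 cell barcodes of kept cells occurred in 2 or more of them. Scrublet marked 0, 0, 2, 2 and 10 members as doublets in WT1, WT2, WT3, KO2 and KO3, and they stayed in.

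Of the 5 markers listed for the label, Gad2, Adarb2, Nr2f2 and Sp8 are in the rule, so Dlx6os1, a long noncoding RNA of the Dlx5 and Dlx6 locus, was the marker that could check it. Its level was 287, 282 and 344 CPM in WT1, WT2 and WT3 and 259 and 185 CPM in KO2 and KO3. It was above the level in Lhx6 interneurons (mean 124 CPM) in 5 of 5 libraries. Of the 504 members, 451 carried a UMI of Dlx1, Dlx2, Dlx5, Dlx6 or Dlx6os1, and 53 did not. Sst, the somatostatin gene of the Lhx6 lineage, was found in 51 members, and 24 members held at least 2 of its UMIs. At least 5 UMIs of Sst, Sox6, Satb1 and Nkx2-1 together were held by 33 members, so RNA of that lineage was present in part of the class.

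The rule's genes were spread unevenly over the members. Adarb2, an RNA-editing family protein without known editing activity (mm10 chr13:8202866-8768747), was found in 383 members at 789 to 969 CPM. Nr2f2, also called COUP-TFII, a nuclear receptor of caudal-eminence cells (chr7:70351944-70366735), was found in 414 members at 275 to 398 CPM. Sp8, a zinc-finger transcription factor (chr12:118846329-118852576), was found in 88 members, at 78.5, 50.04 and 24.9 CPM in WT1, WT2 and WT3 and at 51.1 and 40.7 CPM in KO2 and KO3. Lhx6 interneurons also held Nr2f2, at a mean of 121 CPM against 349 CPM in the members. Their means were 42.3 CPM for Adarb2 and 1.38 CPM for Sp8. Both Sp8 and Nr2f2 were seen in 69 members, Sp8 alone of the pair in 19, Nr2f2 alone in 345, and neither, with Adarb2 only, in 71. At the edge of the rule, 122 members had exactly 2 Gad1 plus Gad2 UMIs and 302 cells with 1 such UMI were just outside. Likewise 59 members had a single UMI of Adarb2, Nr2f2 and Sp8 and 170 cells with none were just outside.

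CGE-type interneurons made up 0.911% of kept cells in WT1, 0.700% in WT2 and 2.08% in WT3, against 1.23% in KO2 and 3.03% in KO3. The replicate 3 libraries were the highest of each genotype and the groups overlapped. The exact Clopper-Pearson 95% intervals, which cover counting error only, ran from 0.693 to 1.18%, from 0.482 to 0.981%, from 1.79 to 2.41%, from 0.960 to 1.56% and from 2.60 to 3.52% in the same order. The wild-type mean was 1.23% ± 0.743 (SD, n = 3). The knockout mean was 2.13% ± 1.27 (SD, n = 2), and the difference of 0.902 percentage points was within the spread (two-sided exact permutation p = 0.4).

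Against the other inhibitory cells the class was steadier. It was 23.0% of Gad-positive cells in WT1, 20.5% in WT2 and 24.5% in WT3, and 16.9% in KO2 and 23.8% in KO3 (22.7% ± 2.02 against 20.3% ± 4.89, SD, n = 3 and n = 2, two-sided exact permutation p = 0.6). The knockout minus wild-type difference of -2.33 percentage points turned to 1.124 without KO2 and to 0.136 when cells were thinned to 3000 UMIs before the rule. For each Lhx6 interneuron there were 0.682, 1.18 and 0.885 CGE-type interneurons in wild type and 0.580 and 0.865 in the knockout (two-sided exact permutation p = 0.4). WT2 was the only library with more CGE-type than Lhx6 interneurons, 33 against 28. Median UMIs per member were 8974.5, 7452 and 6633 in wild type and 7946 and 7901 in the knockout (two-sided exact permutation p = 0.7). Depth per cell bears on thresholds of 0 and 1 UMI, and the difference of 237 UMIs turned to -289.75 without WT3.

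**Figure D1:**
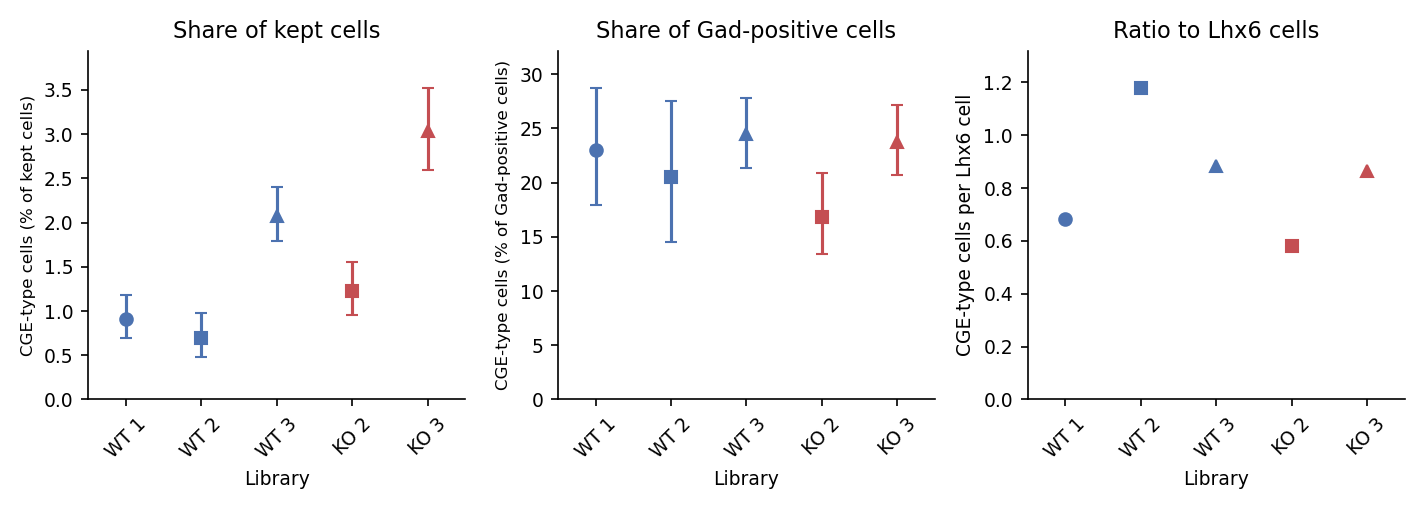
CGE-type interneurons in each library as a percentage of kept cells, as a percentage of Gad-positive cells (both with exact 95% intervals) and as cells per Lhx6 interneuron. The share of kept cells is highest in WT3 (2.08%) and KO3 (3.03%), while the share of Gad-positive cells lies between 16.9% and 24.5% in all 5 libraries.

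The levels of other genes in the class are given next as descriptions, since the cells were chosen on genes that travel with them. They are set beside 625 Lhx6 interneurons chosen from the same libraries by at least 2 Gad1 plus Gad2 UMIs, at least 1 Lhx6 UMI, at most 1 Meis2 UMI and 0 of Foxp2, Neurod6, Mki67 and Top2a. Of 9167 genes with a mean of at least 20 UMIs per library, 998 were higher in the CGE-type cells and 920 lower in 5 of 5 libraries. From a list of 20 CGE identity genes, 10 were higher and 3 lower (Npy, Lamp5 and Sp9) in 5 of 5 libraries.

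Among transcription factors, Prox1, a homeodomain factor kept by caudal-eminence cells after they leave the cell cycle (chr1:190118035-190170714), was at 232, 415 and 307 CPM in WT1, WT2 and WT3 and at 211 and 184 CPM in KO2 and KO3. Its mean of 270 CPM was 5.63 times the 48.0 CPM of Lhx6 interneurons. Npas1, a basic helix-loop-helix repressor, lay between 323 and 373 CPM in every library, the narrowest range of the genes named in this paragraph, against a mean of 101 CPM in Lhx6 cells. Id2, an inhibitor of such factors that marks neurogliaform cells, lay between 242 and 347 CPM and was lower than in Lhx6 cells in 4 of 5 libraries (mean 286 against 427 CPM). Of the list for the other stream, 11 of 13 MGE identity genes, among them Satb1 and Sox6, were lower in the CGE-type cells in 5 of 5 libraries, and none was higher. Of 15 genes listed for the lateral eminence and Meis2 neurons, 4 were higher and 2 lower in 5 of 5 libraries. The summed level of Foxp1, Tshz1 and Pbx3, markers of Meis2 or Foxp2 inhibitory neurons, was 196 to 300 CPM in the members. It was 113 to 168 CPM in Lhx6 cells, and 84 members held at least 5 UMIs of these genes together.

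Developmental factors shared by interneurons of both streams were mostly present in both classes at unequal levels. Dlx1 and Dlx2, which drive interneuron fate, had means of 311 and 142 CPM against 179 and 101 CPM in Lhx6 cells, whereas Dlx5 differed little (107 against 101 CPM). Nfib and Nfia, nuclear factor I genes of late progenitors and their neurons, had means of 1024 and 238 CPM against 573 and 80.9 CPM. Npas3, a relative of Npas1, had means of 374 and 130 CPM, and Pbx3, a homeodomain cofactor that is also a marker of Meis2 or Foxp2 inhibitory neurons, 72.7 and 16.2 CPM. Sp9, the close relative of Sp8, ran the other way, at 14.3 to 44.6 CPM against a mean of 153 CPM. Apart from Dlx5, which overlapped, these genes kept their side in 5 of 5 libraries.

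Genes that guide migrating interneurons divided as well. Of 27 migration and guidance genes 8 were higher and 5 lower in 5 of 5 libraries, among all genes with 998 and 920 of 9167. Erbb4, the neuregulin receptor, was at 193 to 270 CPM against a mean of 192 CPM in Lhx6 cells. The chemokine receptors Cxcr4 and Ackr3, which read Cxcl12, had means of 23.9 and 2.96 CPM against 40.6 and 20.2 CPM, and Unc5c, a netrin receptor, 41.5 against 90.0 CPM. Dcx, the microtubule protein of young neurons, had close means of 805 and 904 CPM.

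Receptors and secreted factors covered a wide range of ratios. Cnr1, the CB1 cannabinoid receptor of cholecystokinin basket cells, was the most abundant of those given here, at 1669 to 2141 CPM, a mean 12.3 times that of Lhx6 interneurons (1959 against 160 CPM). Htr3a was at 53.9 to 136 CPM against a mean of 4.48 CPM in Lhx6 cells. Cxcl14, a secreted chemokine, was at 175 to 490 CPM, a mean 52.4 times higher than in Lhx6 cells. Ndnf, a secreted neurotrophic factor of neurogliaform cells, was at 112 to 211 CPM, a mean of 154 CPM against 23.2 CPM. Reln, an extracellular guidance glycoprotein, was at 150 to 263 CPM and differed less, with a mean of 214 CPM against 146 CPM and overlapping ranges.

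Several peptide genes were already present on postnatal day 1. Cck, the cholecystokinin gene, was at 1014, 708 and 490 CPM in wild type and 537 and 573 CPM in the knockout, a mean of 664 CPM against 69.9 CPM in Lhx6 cells. Vip was at 46.1, 10.7, 76.1, 51.1 and 31.0 CPM in WT1, WT2, WT3, KO2 and KO3, against a mean of 0.243 CPM in Lhx6 cells. Its lowest value came from WT2, the library with fewest members. Sst, from the MGE identity list, and Npy, neuropeptide Y, from the CGE identity list, ran the other way. Sst had a mean of 152 CPM against 2213 CPM and Npy 186 CPM against 1239 CPM, both lower in 5 of 5 libraries. Several adult subtype markers were scarcely seen, with 18 UMIs of Lamp5, 5 of Sncg, 2 of Scgn and 1 of Pvalb in all members together. Lamp5 had a mean of 4.07 CPM against 29.3 CPM in Lhx6 cells and was lower in 5 of 5 libraries.

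The machinery of GABA release differed less between the classes than the identity genes. Slc32a1, which loads GABA into vesicles, had a mean of 199 CPM in the CGE-type cells and 207 CPM in Lhx6 interneurons. Of 9 genes of GABA synthesis and transport none was higher and 2 were lower in 5 of 5 libraries. The chloride exporter Slc12a5, whose rise makes GABA inhibitory, had means of 51.7 and 54.7 CPM, and the importer Slc12a2 32.4 and 20.4 CPM. Gabra2, a synaptic receptor subunit, had means of 132 and 70.8 CPM and was higher in the CGE-type cells in 5 of 5 libraries, while Gabrg3 had 28.7 and 102 CPM and was lower in 5 of 5.

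**Figure D2:**
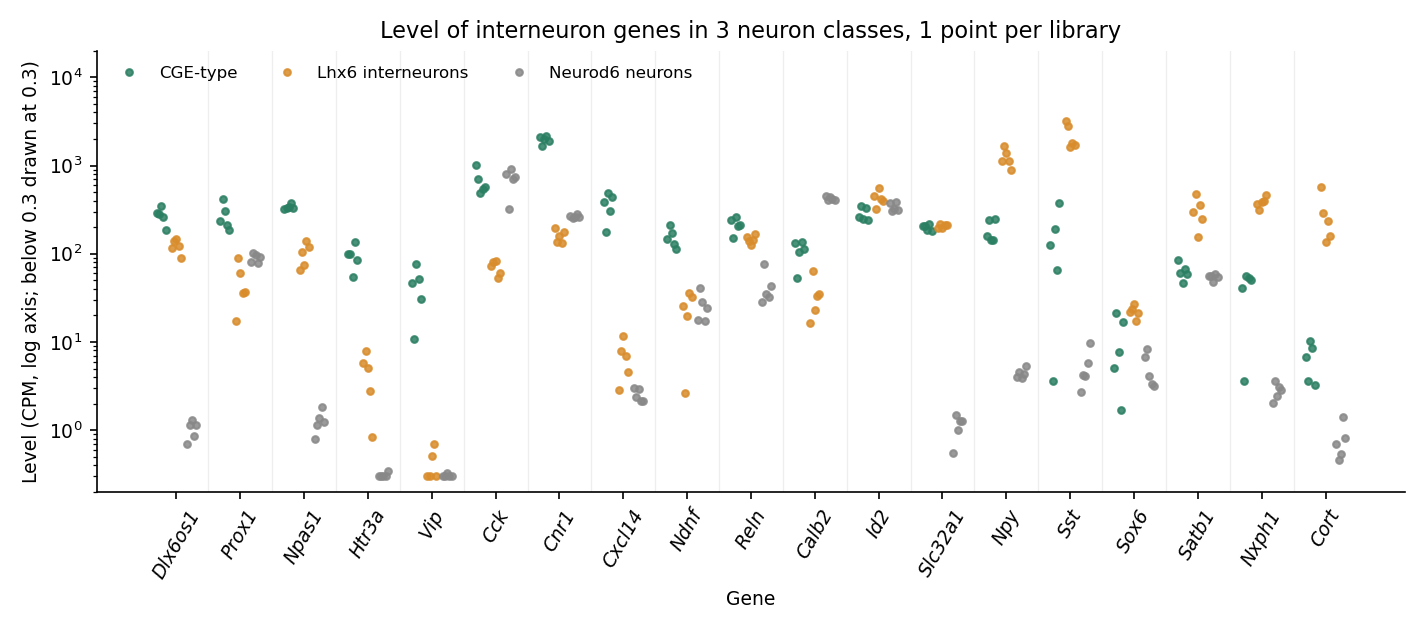
Levels of named genes, in CPM of summed counts on a log axis, in CGE-type, Lhx6 and Neurod6 cells, with 1 point per library and values below 0.3 drawn at 0.3. Prox1, Npas1, Htr3a, Cnr1, Cck and Cxcl14 lie higher in the CGE-type cells than in Lhx6 interneurons in all 5 libraries, and Sst and Npy lie lower.

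In single cells most of these genes were seen in a minority of members. Cnr1 was detected in 457 members (90.7%), Npas1 in 300 (59.5%), Prox1 in 256 (50.8%), Cck in 237 (47.0%), Htr3a in 147 (29.2%), Cxcl14 in 143 (28.4%), Ndnf in 98 (19.4%) and Vip in 35 (6.94%). To compare classes at 1 depth, each cell was thinned at random to 3000 UMIs, which left 450 CGE-type, 590 Lhx6 and 9367 Neurod6 cells. Members below that depth numbered 4, 4 and 18 in WT1, WT2 and WT3 and 8 and 20 in KO2 and KO3. At this depth Npas1 was found in 47.3% of CGE-type cells, 16.1% of Lhx6 cells and 0.480% of Neurod6 cells, which are excitatory neurons and should lack it. Cxcl14 was found in 25.6%, 0.847% and 0.843%, and Vip in 4.44%, 0% and 0.0747%, in the same order. All 3 shares in CGE-type cells were far above those in the excitatory cells, whose median depth before thinning was 9175 to 11449 UMIs against 6633 to 8974.5 UMIs in the members. The Neurod6 cells were chosen for Neurod6 UMIs and for no UMI of Gad1, Gad2, Mki67 or Top2a. Cells with a Gad UMI were thus left out, so these shares are not a background for all excitatory cells. Prox1 (40.0%, 9.15% and 14.2%) and Cnr1 (82.2%, 29.7% and 54.1%) are also genes of hippocampal excitatory neurons, so those cells give no background for them.

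Members with and without an Adarb2 UMI carried different gene combinations. Of the 450 thinned members, 341 had Adarb2 in the full data (median 7452 UMIs per cell over all such members) and 109 did not (median 7889). After thinning, Npas1 was found in 56.9% of the former and 17.4% of the latter (70.8% and 23.97% without thinning), and Cxcl14 in 32.3% and 4.59% (35.8% and 4.96% without thinning). Cnr1 was found in 92.4% and 50.5%, and Cck in 40.2% and 14.7%. All 4 genes were more frequent with Adarb2 in 5 of 5 libraries.

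Peptides split in both directions with Adarb2. Vip was found in 5.87% of thinned members with Adarb2 and 0% of those without, and Crh, the corticotropin-releasing hormone gene, in 5.57% and 0%. Sst was found in 2.64% and 18.3% (6.01% and 23.1% without thinning), lower with Adarb2 in 4 libraries and higher in none. Npy was found in 5.57% and 15.6% (9.92% and 22.3% without thinning), lower in 4 libraries and higher in 1. Calb2, the calretinin gene, was found in 16.7% and 18.3%, lower with Adarb2 in 4 of 5 libraries, and Id2 in 37.0% and 40.4%, so CGE identity genes did not all go 1 way.

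**Figure D3:**
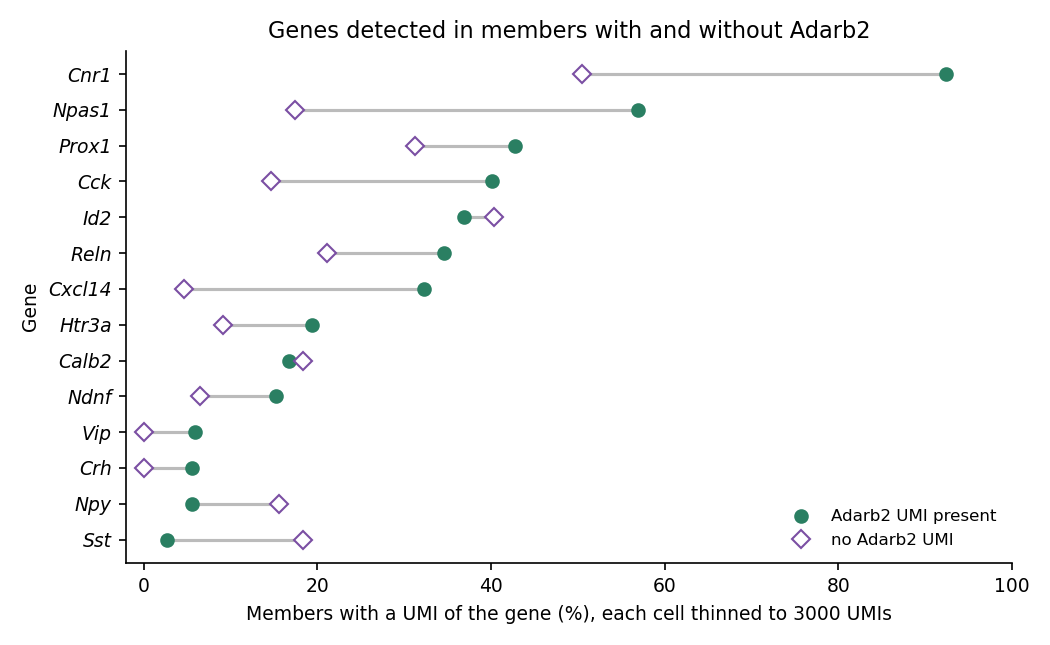
Percentage of members, thinned to 3000 UMIs, in which each of 14 genes was detected, for 341 members with an Adarb2 UMI and 109 without. Members without Adarb2 entered the class by Nr2f2 or Sp8. Cnr1 (92.4% against 50.5%), Npas1 and Cxcl14 lie to the higher side with Adarb2, and Sst (2.64% against 18.3%) and Npy to the lower side.

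A pair of combinations stood out among the peptide and secreted-factor genes. All 35 members with Vip also carried Adarb2 and Cnr1, 32 carried Prox1, 22 carried Cck, 15 carried Calb2, and 12 carried Crh, whereas 1 carried Ndnf. After thinning, Crh was found in 25.0% of members with Vip and 2.63% of the rest, Calb2 in 40.6% and 15.3%, and Ndnf in 0% and 14.1%. Members with Ndnf formed the other combination. After thinning, 53.2% of them carried Reln against 25.6% of the rest, and 45.7% carried Cxcl14 against 20.2%, both higher in 5 of 5 libraries. Prox1 (22.3% against 44.7%) and Calb2 (5.32% against 20.2%) were less frequent with Ndnf in 5 of 5 libraries. These pairs were picked after their values were seen and carry no test.

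The design set members with Sp8 against members with Nr2f2 within each library. Only 19 cells (4, 2, 3, 2 and 8 in WT1, WT2, WT3, KO2 and KO3) had Sp8 and no Nr2f2, against 345 with Nr2f2 and no Sp8. With library as a block, edgeR's quasi-likelihood test called 10 of 2600 genes (0.385%) at a Benjamini-Hochberg adjusted p under 0.05, 2 higher (0.0769%) and 8 lower (0.308%) with Sp8. Alcam, an adhesion molecule of growing axons, was higher in the Sp8 cells in 5 of 5 libraries, with means of 534 ± 260 against 157 ± 39.7 CPM (SD, n = 5; log2 difference 1.62, SE 0.227, edgeR adjusted p = 0.0061). Cxcl14 was lower in 5 of 5, with means of 86.4 ± 101 against 392 ± 175 CPM (SD, n = 5; log2 difference -2.61, SE 0.447, edgeR adjusted p = 0.0157). Col25a1, a membrane collagen, was also higher (log2 difference 2.03), and Rgs12, Thsd7a, Nr2f1 and Tshz1 were lower (log2 differences -2.83, -2.66, -1.92 and -2.37). No gene was called without WT1 or without WT3, and 46 were called without KO3. With all 88 Sp8 cells, in the comparison that follows, Cxcl14 was not called (means 288 against 392 CPM, edgeR adjusted p = 0.325) and was higher with Sp8 in WT2. After thinning it was found in 28.4% of members with Sp8 and 24.9% of the rest (36.4% and 26.7% without thinning), more often with Sp8 in 4 of 5 libraries.

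Because so few cells entered, a second comparison was added after the cells had been counted. It set all 88 members with a Sp8 UMI (15, 7, 20, 16 and 30 in WT1, WT2, WT3, KO2 and KO3) against the same 345 members with Nr2f2 and no Sp8 (36, 20, 128, 46 and 115), again within libraries. edgeR called 116 of 4805 genes (2.41%), 70 higher (1.46%) and 46 lower (0.957%) with Sp8. The cells with Sp8 were deeper, with median UMIs of 14875, 8279, 11259.5, 14499.5 and 13106.5 against 8583, 7191, 6619.5, 7901.5 and 7578. Markers of other cells moved with the split as well. The summed level of Lhx6 interneuron markers was 8.60 to 72.3 CPM with Sp8 and 139 to 669 CPM without, that of 6 measured excitatory markers 4.70 to 168 against 91.7 to 238 CPM, both lower in 5 of 5 libraries, and that of radial glia markers 56.1 to 2984 against 249.9 to 10638 CPM, lower in 4 of 5. Oligodendrocyte precursor markers were at 0 CPM with Sp8 in 4 libraries and 44.3 CPM in KO3, against 26.1 to 66.2 CPM, lower in 5 of 5, and Cajal-Retzius markers were at 70.5 to 460.1 against 225 to 698 CPM, lower in 4 of 5.

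Sfrp2, a secreted Wnt-binding protein (chr3:83766321-83774316), had the largest increase of the genes named here. It was at 155, 101 and 215 CPM with Sp8 in WT1, WT2 and WT3 and at 304 and 62.9 CPM in KO2 and KO3, against 5.79, 6.62, 21.5, 34.1 and 6.05 CPM with Nr2f2 alone. The 2 sets of cells did not overlap (log2 difference 3.42, SE 0.227, edgeR adjusted p = 1e-06). Lmo1, a LIM-domain transcriptional cofactor (chr7:109138572-109175207), was at 282, 213, 396, 245 and 207 CPM with Sp8 against 37.6, 19.9, 56.1, 68.2 and 37.3 CPM. These too did not overlap (log2 difference 2.57, SE 0.185, edgeR adjusted p = 1e-06).

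The peptide and receptor genes of cholecystokinin cells rose with Sp8. Cck (chr9:121489824-121495694) was at 2233, 1515, 1041, 931 and 1107 CPM with Sp8 in WT1, WT2, WT3, KO2 and KO3, against 339, 232, 373, 318 and 380 CPM. Every value with Sp8 was above every value without (log2 difference 1.93, SE 0.167, edgeR adjusted p = 6e-06). Cnr1 was at 3254, 2435, 3334, 3047 and 2131 CPM against 1454, 1013, 1732, 1585 and 1636 CPM, again with no overlap (log2 difference 0.91, SE 0.10, edgeR adjusted p = 7.9e-05). Vip (chr10:5639218-5647617) was at 108, 0, 194, 122 and 72.3 CPM against 11.6, 0, 48.6, 8.52 and 16.1 CPM. It was higher in 4 libraries and at 0 in both sets of WT2 (log2 difference 2.40, SE 0.269, edgeR adjusted p = 0.0001). Of 4 neuropeptide genes tested 3 rose, among all genes with 1.46% called higher. The last of the 3 was Pnoc, which encodes prepronociceptin (log2 difference 0.65, edgeR adjusted p = 0.0289).

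A few genes of GABA handling and synaptic function were also called, among all genes with 1.46% called higher and 0.957% called lower. Abat, which breaks down GABA, was the 1 gene of 6 tested of GABA synthesis and transport that changed (log2 difference 1.27). Of 7 GABA-A receptor and chloride transporter genes, 2 rose, among them Gabra5 (log2 difference 1.5). Gabra5, the subunit of extrasynaptic receptors, averaged 168 ± 43.7 CPM with Sp8 and 52.8 ± 24.1 CPM without (SD, n = 5). Kcnip1, a potassium-channel partner common in caudal-eminence cells, averaged 120 ± 41.0 against 38.3 ± 6.08 CPM (SD, n = 5; log2 difference 1.59). Of 20 presynaptic genes tested 2 rose, Cplx2, a brake on vesicle fusion, and Nrxn3, an adhesion protein, and none fell. Of 10 ion channel genes of excitability none rose and 1 fell, the potassium channel Kcnc2 (means 9.96 against 52.6 CPM). Of 11 ionotropic glutamate receptor genes none rose and 1 fell, the AMPA receptor subunit Gria2 (means 239 against 416 CPM).

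Of 21 interneuron transcription factors tested 1 rose, 6 fell and 14 were not called. Over all genes tested, 1.46% were called higher and 0.957% lower. The list's median log2 difference was -0.0081, close to -0.0056 over all genes. Nr2f1, the close relative of Nr2f2, was at 151, 191, 181, 235 and 145 CPM with Sp8 against 362, 609, 312, 327 and 419 CPM in cells chosen for Nr2f2 and no Sp8 (log2 difference -1.13, edgeR adjusted p = 0.00042). Prox1 averaged 170 ± 75.9 against 325 ± 130 CPM (SD, n = 5), lower in 4 of 5 libraries and level in KO2 (215 against 210 CPM; log2 difference -0.93, edgeR adjusted p = 0.0256). Sox4, a factor of immature neurons, averaged 540 ± 256 against 1003 ± 194 CPM (SD, n = 5; log2 difference -1.01), and its relative Sox11 also fell. Nfix, a nuclear factor I gene, fell as well.

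Other called genes were named from the ranking by p. Mef2c, an activity-related factor, was at 226, 191, 323, 240 and 226 CPM against 588, 238, 633, 511 and 518 CPM, with the nearest values in WT2 (log2 difference -1.08). Zbtb20, a factor of hippocampal pyramidal neurons and glia (log2 difference -1.20), Bcl11a, a zinc-finger repressor (log2 difference -1.63), and Satb1, a chromatin organiser of the Lhx6 lineage (log2 difference -1.72), fell too. Maf, by contrast, rose (log2 difference 0.89) although it sits with Satb1 on the MGE identity list. Nrgn, a calmodulin-binding protein abundant in excitatory neurons, was at 9.40, 0, 8.60, 14.7 and 6.99 CPM against 43.4, 53.0, 78.6, 105 and 82.6 CPM (log2 difference -3.10, SE 0.329, edgeR adjusted p = 6.5e-05). The excitatory and Lhx6 marker lists were lower with Sp8 in the same libraries, and their part in these values was not tested.

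Energy genes were measured for both steps of metabolism. Of 37 complex I genes, the entry of the respiratory chain, 32 had a log2 difference above 0 with Sp8 and none passed (median 0.14, against -0.0056 over all 4805 genes). Of 33 genes of complexes III to V, 32 were above 0 and 1, Cox8a, passed (median 0.18). Of 13 glycolysis genes, 12 were above 0 and 1, Ldha, passed (median 0.35). The mitochondrially encoded genes did not lean that way, with 7 of 12 above and 5 below 0 (median 0.035). Of 10 genes of mitochondrial biogenesis and dynamics, 7 were above and 3 below 0 (median 0.048). None passed in either list. Over all genes tested, 1.46% were called higher. Depth per cell moved with the split here too, and its part was not tested on these lists.

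**Figure D4:**
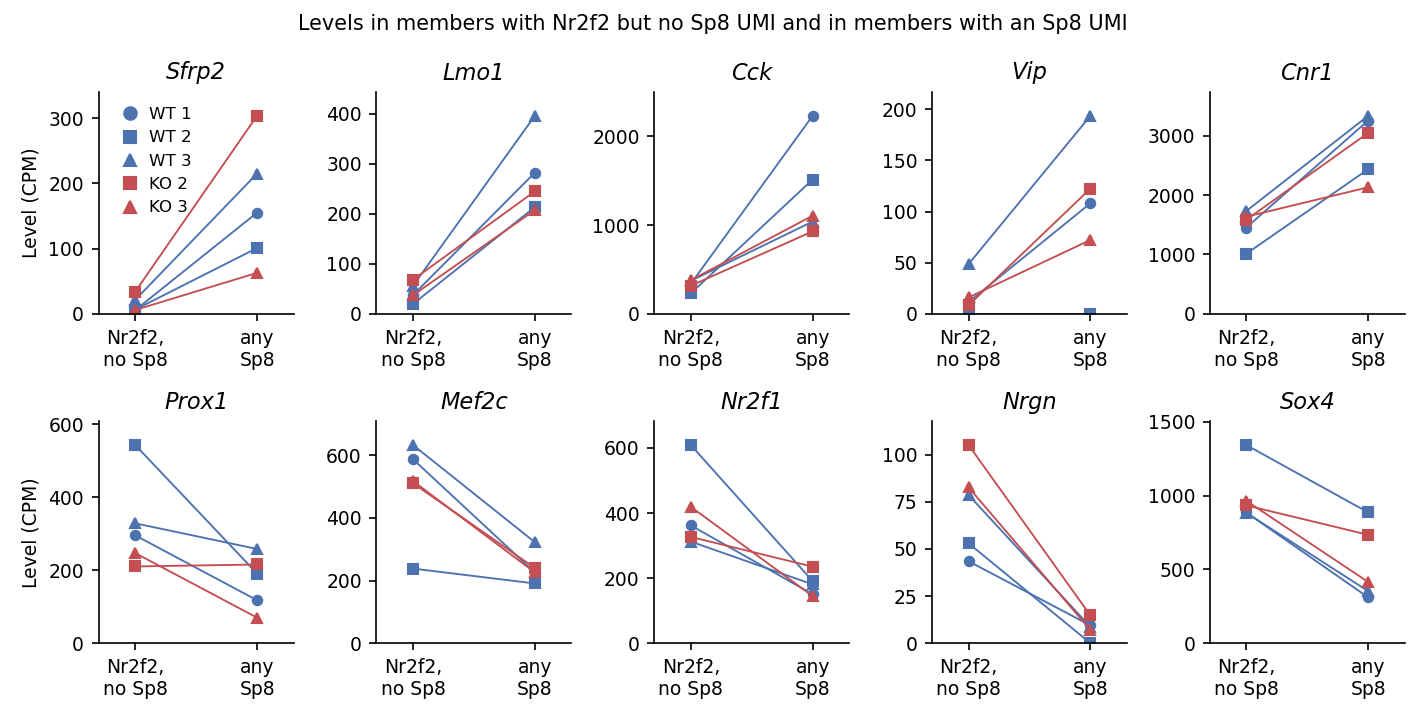
Levels in CPM on a linear axis of 10 genes in members with Nr2f2 and no Sp8 and in members with any Sp8 UMI, with 1 line per library. Sfrp2, Lmo1, Cck and Cnr1 rise in all 5 libraries, and Nr2f1, Mef2c, Nrgn and Sox4 fall in all 5.

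Settings that bear on depth called fewer genes, and they also left fewer cells or UMIs. With only cells of at least 8000 UMIs, where the Sp8 cells were still the deeper ones in each library, 61 genes were called, 54 of them among the 116. With members thinned to 3000 UMIs after the rule was applied, 27 were called, 24 of them among the 116. Every one of the 116 genes still tested kept its sign in both settings, 106 in the former and 57 in the latter. Both settings reuse the cells and the Sp8 calls from which the 116 were picked, so the kept signs are not a separate check on depth. When cells were thinned before the rule, so that many lost their Sp8 UMI, 2 of 562 genes were called, Cck and Cnr1. In that setting 24 of the 116 were still tested. With members that carried an Adarb2 UMI only, 142 genes were called, of which 89 were among the 116. Leaving out WT1, WT3 or KO2 gave 57, 52 and 59 genes. Sfrp2, Lmo1, Cck, Cnr1, Vip, Kcnip1, Gabra5, Abat, Nrgn, Bcl11a and Satb1 passed in every alternative in which they passed the filter on low counts. Prox1 missed the threshold without WT1 and without WT2, and Pnoc without WT1, WT3 or KO2, and both missed it among cells of at least 8000 UMIs.

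The study compared Trem2 -/- with Trem2 +/+ animals. Trem2 (chr17:48346401-48354147) was all but absent from the class: 1 UMI in WT2 and 3 in WT3, in 2 cells, and 0 UMIs in WT1, KO2 and KO3. It therefore could not check the genotype labels here.

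No gene was called between genotypes in CGE-type interneurons. Of 7771 genes tested, edgeR's quasi-likelihood test called 0 (0%) at an adjusted p under 0.05 and found 177 with an unadjusted p under that value. DESeq2 called 0 and found 32. Both knockout libraries were below all 3 wild-type libraries for 649 genes (8.35%) and above them for 648 (8.34%), near-equal numbers. Without KO2, which leaves KO3 as the lone knockout library, 6 genes were called, Pmch, Zic1, Gfap, Zic4, Rsph1 and Zfhx3. All 105 Pmch UMIs of KO3 came from 1 cell. The values that follow are descriptions of genes that did not pass, each with an edgeR adjusted p of 0.9999.

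Among the CGE identity genes, 16 were tested, 8 above and 8 below 0 (median log2 difference -0.035, against -0.0041 over all genes). In Prox1 the 2 knockout libraries (211 and 184 CPM) lay below the 3 wild-type libraries (232 to 415 CPM), a log2 difference of -0.66 (SE 0.205). Ndnf was at 145, 211 and 172 CPM against 128 and 112 CPM (log2 difference -0.54, SE 0.183), and Dlx6os1, from the transcription factor list, at 287, 282 and 344 against 259 and 185 CPM (log2 difference -0.50, SE 0.171). With cells thinned before the rule Ndnf turned to 0.51. The summed Cajal-Retzius markers, a list that holds Ndnf, were also apart, at 368 to 478 CPM in wild type and 344 to 357 CPM in the knockout, and the part of such cells was not tested. These 3 did not overlap between genotypes, a pattern held by 8.35% of all genes in this direction. Sp9 did not overlap in the other direction, at 34.1, 14.3 and 36.0 CPM in wild type and 42.6 and 44.6 CPM in the knockout, as for 8.34% of all genes. The other 13 CGE identity genes overlapped, among them Npas1, Cnr1, Cck, Vip, Reln, Id2, Htr3a, Calb2 and Cxcl14.

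Among genes with a mean of at least 20 UMIs per library, the 3 with the smallest p in each direction were of varied roles. The first of those lower in the knockout, Selenop, a secreted selenium carrier, was at 52.9, 10.7 and 39.4 CPM in wild type and 3.41 and 8.40 CPM in the knockout (log2 difference -2.45, SE 0.507). Its 106 UMIs came from 16 members. All 31 of WT1 were in 1 cell and 37 of the 57 in WT3 were in another, so single cells set those levels. The summed microglia markers, among which C1qa had 34 of its 38 UMIs in 1 WT1 cell, were also apart, at 22.8 to 263 CPM in wild type and 6.82 to 10.3 CPM in the knockout, and their part in this value was not tested.

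The first of those higher in the knockout, Efnb3, a membrane ligand of Eph receptors, was at 68.3, 60.8 and 76.1 CPM in wild type and 112 in both KO2 and KO3, and its 406 UMIs were spread over 228 members (log2 difference 0.67, SE 0.182). Nrp2, the semaphorin co-receptor that steers migrating interneurons, was at 114, 143 and 160 CPM against 193 and 215 CPM (log2 difference 0.54, SE 0.168). Ntm, a neuronal adhesion protein, was at 289, 275 and 241 CPM against 191 and 187 CPM (log2 difference -0.49, SE 0.150), but turned to 0.40 with cells thinned before the rule and to 0.15 with members thinned after it. Car2, a carbonic anhydrase, was at 52.9, 64.3 and 37.3 CPM against 30.7 and 16.8 CPM (log2 difference -1.13, SE 0.347), and Tsc22d3, a glucocorticoid-induced gene, at 29.0, 28.6 and 44.3 CPM against 63.1 and 63.4 CPM (log2 difference 0.78, SE 0.243). None of these overlapped between genotypes, but they were chosen by smallest p. Of all genes, 8.35% did not overlap in the lower and 8.34% in the higher direction. Over all 22 migration and guidance genes tested, 11 were above and 11 below 0.

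Energy genes, the subject of the series title, stayed near 0. Complex I had 14 genes above and 23 below 0 (median log2 difference -0.021), complexes III to V 8 above and 25 below (median -0.092), glycolysis 5 above and 10 below (median -0.089) and the 13 mitochondrially encoded genes 9 above and 4 below (median 0.093). Cox8a, a subunit of cytochrome oxidase, was at 1325, 1208 and 1271 CPM in wild type and 1024 and 1129 CPM in the knockout, which did not overlap (log2 difference -0.24, SE 0.117). In the other direction and also without overlap, Atp5a1, a subunit of ATP synthase, was at 552, 458 and 502 CPM against 614 and 561 CPM, and Ndufa9, of complex I, at 99.0, 71.5 and 109 CPM against 118 and 125 CPM. Of all genes 8.35% did not overlap in the lower and 8.34% in the higher direction. No energy gene had an adjusted p under 0.05. The median share of mitochondrial UMIs per member averaged 4.56% ± 1.17 in wild type and 5.21% ± 0.907 in the knockout (SD, n = 3 and n = 2, two-sided exact permutation p = 0.4).

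Immediate early genes, which respond to activity and to tissue handling, had the largest list median. Of 12 tested, 9 were above and 3 below 0 (median log2 difference 0.25), and none passed. Jun was at 217, 214 and 290 CPM in wild type and 338 and 312 CPM in the knockout (log2 difference 0.40, SE 0.157). Of 14 GABA-A receptor and chloride transporter genes, 9 were above 0 and none passed, and Gabra2 was at 87.1, 147 and 115 CPM against 165 and 147 CPM (log2 difference 0.47). Of 8 genes through which neurons signal to microglia, 4 were above and 4 below 0. Mea1, 1 of 3 genes listed for lying near Trem2 on chromosome 17, was at 155, 111 and 133 CPM against 93.8 and 90.5 CPM (log2 difference -0.56, SE 0.181). Mrps10, another of the 3, went the other way without overlap, at 73.4, 53.6 and 60.2 CPM against 90.3 and 98.3 CPM, and Mrpl2 overlapped. Mea1, Jun and Gabra2 did not overlap either, a pattern held by 8.35% of all genes in the lower and 8.34% in the higher direction.

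**Figure D5:**
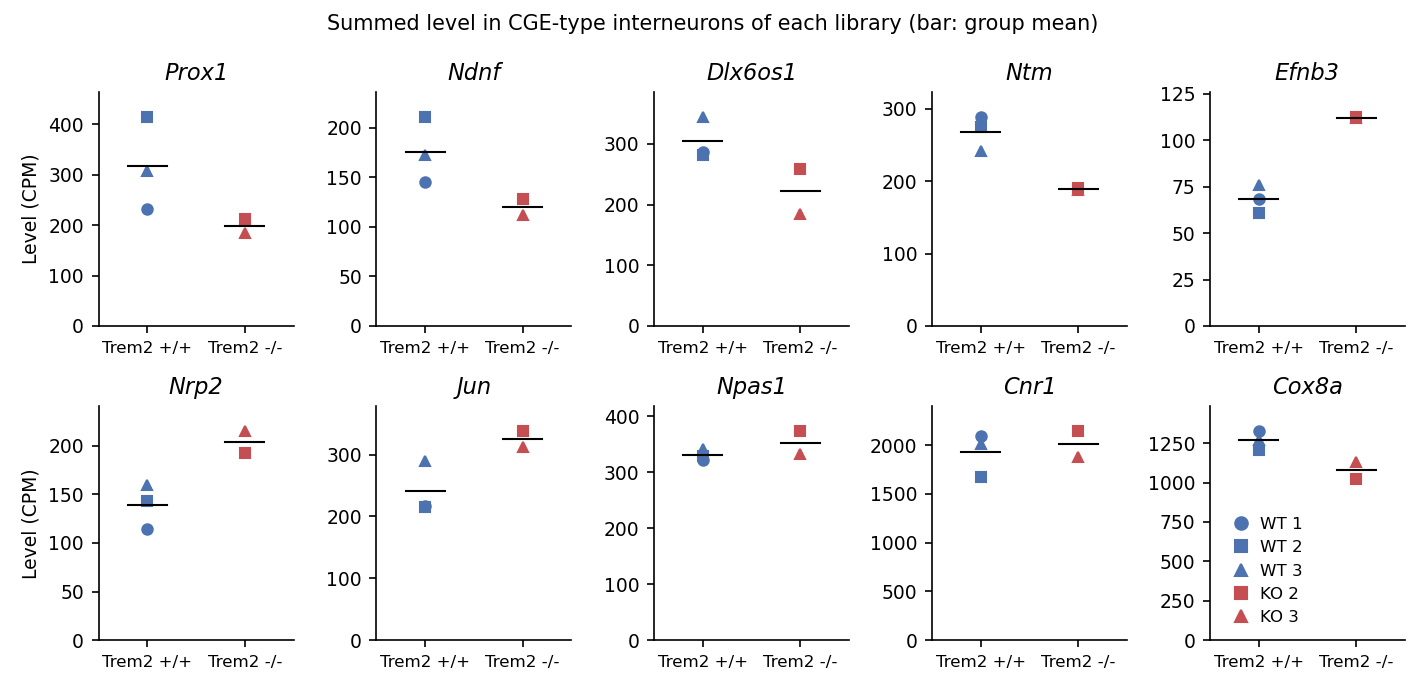
Levels in CPM of 10 genes in CGE-type interneurons, with 1 point per library and a bar at the mean of each genotype. Prox1, Ndnf, Dlx6os1 and Ntm lie lower and Efnb3, Nrp2 and Jun higher in both knockout libraries without overlap, while Npas1 and Cnr1 overlap. Of all genes, 8.35% lie lower and 8.34% higher without overlap, and no gene passed the edgeR test.

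Whether the genotype difference was the same in CGE-type and Lhx6 interneurons was tested with a class by genotype term, with library as a block. edgeR called 1 of 10382 genes (0.00963%), Vtn, the gene of the matrix protein vitronectin (chr11:78499091-78502324; adjusted p = 0.0234). Its CGE-type UMIs were 0, 0 and 2 in wild type and 0 and 19 in the knockout, all 19 in 1 cell of KO3, and its Lhx6 UMIs were 1, 47, 41, 0 and 2 in WT1, WT2, WT3, KO2 and KO3. The call was lost without KO3 (edgeR adjusted p = 1.0), without WT2 (0.144), without WT3 (0.104), without the marked doublets (0.548), with at least 3 Gad1 plus Gad2 UMIs (1.0) and with DESeq2 (0.99995). Leaving out WT1 or KO2 gave 9 and 5 genes, and leaving out WT2, WT3 or KO3 gave 0. With all 5 libraries no gene of the CGE identity list passed, and without KO2 Npy did.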

How the data were processed

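The deposited files hold UMI counts per gene and cell barcode, made with Cell Ranger 6.1 on mouse build mm10 per the submitters' processing notes (6.1.1 per the file headers), from papain-dissociated tissue and a 10x 3' kit per the labels' protocols. The authors deposited 6512 to 10582 barcodes and 60024793 to 91205882 UMIs per library. The annotation release is not stated in these sources, and positions are from GENCODE on mm10. Cells with at least 500 genes, 1000 UMIs and at most 15% mitochondrial UMIs were kept. Members' counts were summed per library and tested with edgeR 4.0.16 in R 4.3.3 (TMM, filterByExpr, quasi-likelihood test, Benjamini-Hochberg adjustment over all genes tested, threshold 0.05), with DESeq2 1.42.0 as an alternative. The fits were tested on simulated data. Doublets were scored with Scrublet (scanpy 1.11.5, Python 3.11.15) and left out only in an alternative. In 3 libraries its automatic threshold marked under 0.5% of cells, so the highest scores up to the expected number were marked instead. Named genes are the 3 with the smallest p per direction between genotypes at a mean of at least 20 UMIs per library, up to 12 called genes per direction in the split by Sp8, up to 3 per gene list, and the CGE identity list. Other genes were named after their values were seen. Members, lists and alternatives were chosen with earlier results of these data known. Results for a few genes are not reported here.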

Additional observations from a re-analysis of the deposited data

Results flagged for a closer look

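The genotype difference of Vtn was larger in CGE-type than in Lhx6 interneurons by 8.48 on the log2 scale (edgeR class by genotype term, adjusted p = 0.0234), which met the criterion of a tested difference between cell classes. The value depends on the prior count, since CGE-type cells of WT1, WT2 and KO2 held 0 Vtn UMIs. In the CGE-type cells 19 of 21 UMIs came from 1 KO3 cell, and in the Lhx6 cells 47 and 41 UMIs came from WT2 and WT3. The summed mural cell and fibroblast markers were 808 CPM in the Lhx6 cells of WT2 and 2.49 to 49.7 CPM in those of the other libraries, and their part was not tested.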

How the results depend on the processing

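All values here count genes called at an adjusted p under 0.05 unless another quantity is named. The genotype count of 0 became 40 when low counts were not filtered and 3 with cells thinned before the rule (Ccnd2, Npy and Fabp7), and ran from 0 to 6 with 1 library left out. The replicate block, which uses the numbers 2 and 3 shared by both genotypes, gave 3 (Sparc, Sst and Prox1). The deviations of same-numbered libraries had r = -0.016 for replicates 2 and -0.065 for replicates 3, across genes, which are not independent. With 2 knockout libraries, the r of a wild-type library with KO2 is the opposite of its r with KO3. These values therefore cannot show whether the libraries pair. The main fit did not use the numbers as pairs. The class by genotype count of 1 became 0 with DESeq2, with mitochondrial UMIs of at most 5% and with cells thinned before the rule, 39 with no filter, 2 without marked doublets and 10 with at least 3 Gad1 plus Gad2 UMIs, neither with Vtn among them, 3 with a Dlx UMI required, 4 with at most 1 Sst UMI, and 0 to 9 with 1 library left out. The count of 10 for Sp8 without Nr2f2 became 71 with no filter, 6 with cells thinned before the rule and 29 with a Dlx UMI required, and ran from 0 to 46 with 1 library left out. At most 5% mitochondrial UMIs left an empty sum, so that setting could not be fitted. The count of 116 for any Sp8 became 71 with DESeq2, 253 with no filter, 38 at most 5% mitochondrial UMIs, 2 with cells thinned before the rule, 61 in cells of at least 8000 UMIs and 27 with members thinned after the rule, and ran from 52 to 146 with 1 library left out. The cause of these differences was not tested, beyond the fewer cells, UMIs or libraries that a setting leaves.

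Directions turned in a few values. The log2 genotype difference of Ntm became 0.40 with cells thinned before the rule and 0.15 with members thinned after it, and that of Ndnf 0.51 with cells thinned before the rule. The knockout minus wild-type difference in the share of Gad-positive cells became 0.136 percentage points with thinned cells and ran from -5.79 to 1.124 with 1 library left out. That in median UMIs ran from -289.75 to 881. With 1 library of a genotype left, that library is assumed to vary like the others. Depth limits rare genes most: a library held as few as 33 members, and genes at a few UMIs, such as Trem2, rest on single cells.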
